A study of Mus musculus with 6 samples.

Results

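The interferon-stimulated genes are switched on when a cell senses an interferon, and the immunoproteasome genes belong to the same response. A list of 42 such genes was followed in dermal fibroblasts sorted from mouse ear skin. Every probe set whose platform annotation names only 1 of these genes was taken, which gave 67 probe sets for 40 genes out of 18193 genes measured on the array. Isg15 shared its probe set with another gene and Ifi44 had none that names it, so neither entered. Each gene is represented by its probe set of highest mean over all arrays. By role, 22 measured genes are antiviral effectors, 7 are GTPases, 7 act in antigen processing and 4 are transcription factors.

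Normal dermal fibroblasts (NDF) came from normal ears of non-transgenic FVB/n mice. Cancer-associated fibroblasts (CAF) came from K14-HPV16 mice whose ears were visibly dysplastic. In that line human papillomavirus genes are driven by the keratin 14 promoter, which is active in basal keratinocytes and not in fibroblasts. All mice were male and 4 months old, and cells of both groups were sorted by flow cytometry for the surface receptor PDGFRα. Each group had 3 arrays, and the protocol names 15 mice per genotype without saying whether each array was a separate pool. The p-values therefore measure only the spread between these arrays. Values are log2 intensities as deposited, and a difference is the CAF mean minus the NDF mean. The number of arrays limits the precision. In bulk samples more cells of a type and more RNA per cell cannot be told apart.

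The sort marker Pdgfra was at 12.46 ± 0.15 in NDF and 12.54 ± 0.11 in CAF (SD, n = 3), and 9 of 13 dermal fibroblast genes had a mean difference below 0, with a median of -0.17. CAF replicate 3 stood apart over the whole array, with correlations of 0.91 to 0.93 with the other arrays, which correlated with each other at 0.96 to 0.98. Of all genes, 40% lay above and 33.3% below the NDF range on that array. The difference between probes at the 3' and 5' ends of the actin control transcript was 1.30 on that array and 1.39 to 1.72 on the others. For Gapdh it was 1.19 on that array, within the 0.98 to 1.5 of the others. Differences that CAF replicate 3 moves by a large amount are given with and without it.

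Type I interferons act through a complex that holds Stat2 and Irf9 and binds the interferon-stimulated response element. Interferon γ acts through the gamma-activated site and through Irf1. The effectors block viral entry, translation and replication, the GTPases act on viruses and on the vacuoles of intracellular microbes, and the immunoproteasome subunits Psmb8, Psmb9 and Psmb10 replace Psmb5, Psmb6 and Psmb7 in the proteolytic core and so alter the peptides shown on MHC class I. In skin these genes respond to infection, wounding and inflammation.

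The start regions of members that the results turn on are shown because they carry the letters of these elements. Upstream windows of 250 bases before a RefSeq start (GRCm38.p6, the C57BL/6J reference, not FVB) were matched by symbol for 34 of the 42 genes. They were searched on both strands for the interferon-stimulated response element, written as GAAA, any 2 bases and GAAA again. Capitals mark each match. In every gene shown except Igtp the match is on the opposite strand to the gene and reads TTTC, 2 bases and TTTC.
Ifit1, chr19:34640750-34640848 (+ strand): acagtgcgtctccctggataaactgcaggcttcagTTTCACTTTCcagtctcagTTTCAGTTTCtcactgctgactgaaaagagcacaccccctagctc
Rsad2, chr12:26456528-26456607 (- strand): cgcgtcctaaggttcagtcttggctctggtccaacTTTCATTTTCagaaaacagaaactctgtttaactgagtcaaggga
Gbp2, chr3:142620569-142620648 (+ strand): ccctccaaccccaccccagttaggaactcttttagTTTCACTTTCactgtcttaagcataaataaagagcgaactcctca
Gbp3, chr3:142559964-142560015 (+ strand): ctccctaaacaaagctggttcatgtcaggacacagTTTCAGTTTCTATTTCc
Stat2, chr10:128270248-128270320 (+ strand): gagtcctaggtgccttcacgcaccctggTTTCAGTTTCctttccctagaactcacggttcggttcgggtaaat
Igtp, chr11:58199487-58199555 (+ strand): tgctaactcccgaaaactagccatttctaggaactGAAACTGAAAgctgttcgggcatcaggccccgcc
The match nearest the start lay 76 bases before it in Ifit1, 111 in Rsad2, 50 in Gbp2, 30 in Gbp3, 213 in Stat2 and 25 in Igtp. Ifit1 holds 2 separate matches, and the 2 matches of Gbp3 overlap. The element was found in 12 of 34 genes of the list (35.3%), against 3.46% of the 27025 genes with a window. A match is a description of these letters, not of binding.

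The gamma-activated site was searched as TTCNNNGAA, which is its own reverse complement. It was found in 7 of the 34 genes (20.6%), against 8.13% of all genes, among them Psmb8 and Irf1. In the next lines capitals mark that match, 89 bases before the start of Psmb8 and 82 before that of Irf1.
Psmb8, chr17:34198063-34198141 (+ strand): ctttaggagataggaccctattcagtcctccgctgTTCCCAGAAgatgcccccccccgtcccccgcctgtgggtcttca
Irf1, chr11:53769889-53769967 (+ strand): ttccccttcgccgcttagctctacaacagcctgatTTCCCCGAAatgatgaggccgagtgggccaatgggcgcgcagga
The letters of the NF-κB consensus were found in 6 of the 34 genes (17.6%) and in 8.23% of all genes. Psmb9 and Tap1 are read in opposite directions from starts 225 bases apart, and the stretch between them, shown because both genes had higher values on every CAF array, holds no match to the 3 motifs.
Psmb9 and Tap1, chr17:34187331-34187555 (+ strand): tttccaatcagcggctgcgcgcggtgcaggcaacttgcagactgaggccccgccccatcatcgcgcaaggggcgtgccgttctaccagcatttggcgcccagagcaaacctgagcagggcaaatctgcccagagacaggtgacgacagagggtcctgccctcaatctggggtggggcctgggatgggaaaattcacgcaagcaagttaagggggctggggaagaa

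Most genes of the list had higher values in CAF, and only Psmb8 passed the test over all genes. The mean difference was above 0 for 33 of 40 genes (44.5% of all genes on the array), and over 1 log2 unit for 10 (4.08% of all genes). The median difference was 0.52, against -0.04 over all genes. With limma and Benjamini-Hochberg adjustment over all genes, 1 of 40 was higher (2.5%, against 0.489% of all genes) and none was lower (0.0275% of all genes). At an unadjusted p under 0.05, 15 of 40 were higher, or 37.5%, where 4.93% of all genes were. None was lower at that level, where 4.02% of all genes were. On 19 of 40 genes all CAF arrays lay above all NDF arrays (6.78% of all genes), and on none did they all lie below (8.66% of all genes). Without CAF replicate 3, the count of higher genes at that level was 22 of 40 (6.84% of all genes).

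**Figure D1:**
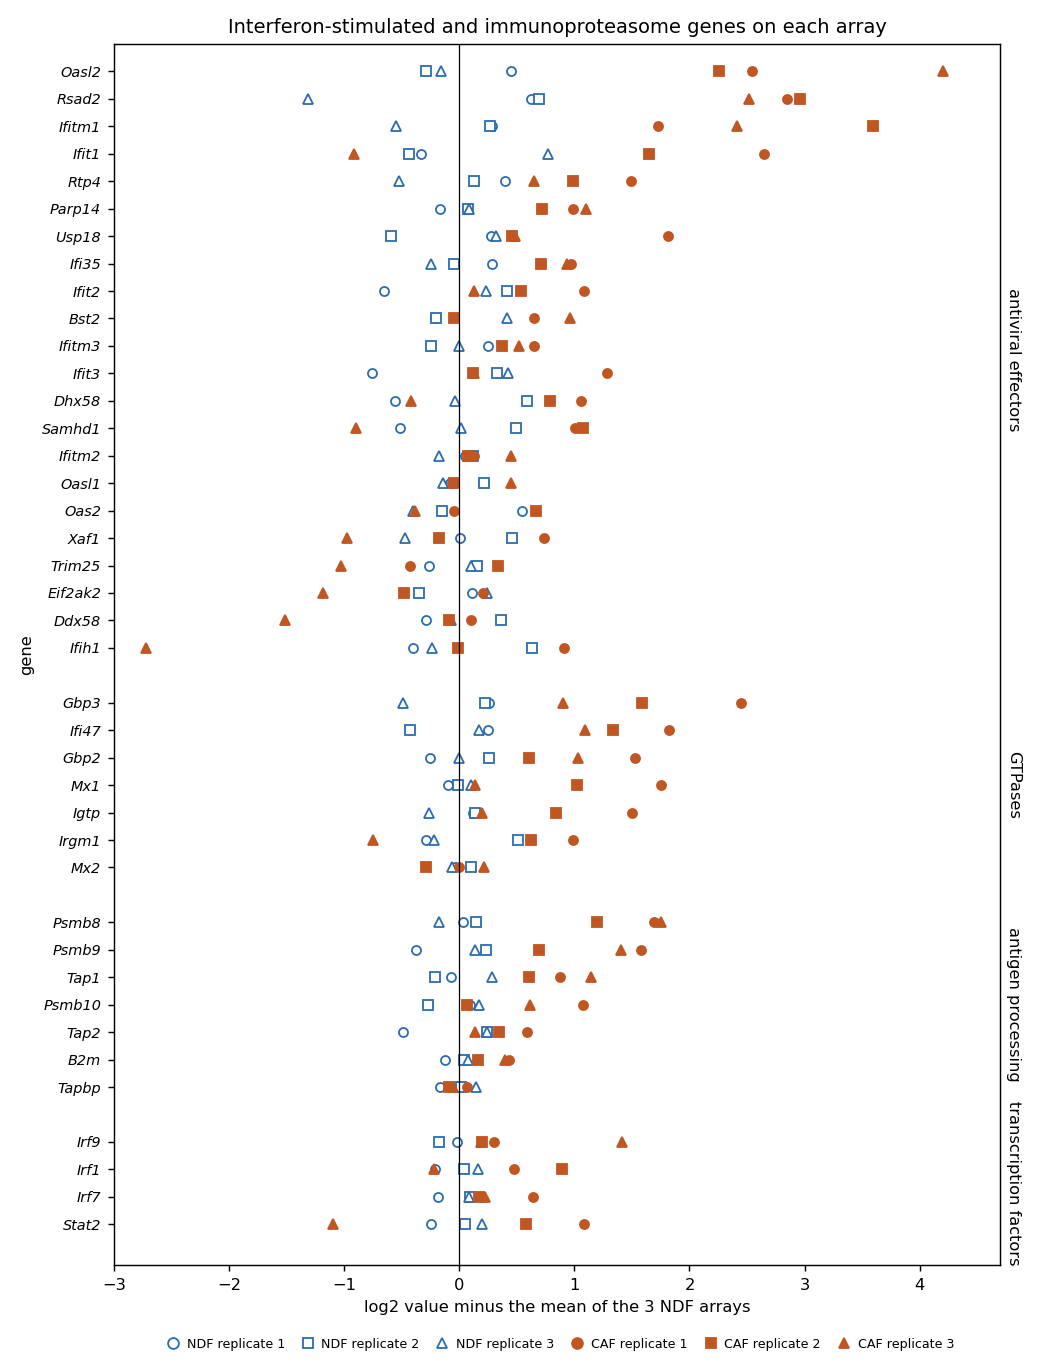
Each row is a gene and each symbol an array, plotted as its log2 value minus the mean of the 3 NDF arrays, with NDF arrays as open and CAF arrays as filled symbols. CAF replicate 3 (filled triangles) lies to the left of the NDF arrays for Ifih1, Ddx58, Eif2ak2 and Stat2.

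Among the antiviral effectors, 7 of 22 reached an unadjusted p under 0.05, all higher (4.93% of all genes were), and none passed the adjusted threshold. Their median difference was 0.51. Oasl2, an oligoadenylate synthetase-like protein, was at 3.84, 3.11 and 3.24 on the NDF arrays and at 5.94, 5.65 and 7.60 on the CAF arrays. The groups did not overlap, and CAF replicate 3 was the highest. The difference was 3.00 ± 0.52 (SE; limma adjusted p = 0.0847). The NDF mean of 3.40 lies below the 25th percentile of probe set means (3.60), where RMA compresses differences, so no fold is given. Without CAF replicate 3 the difference was 2.40 (adjusted p = 0.0242).

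Rsad2 encodes viperin, an enzyme that makes a chain-terminating nucleotide against viral polymerases. It was at 6.61, 6.67 and 4.67 in NDF and at 8.83, 8.94 and 8.50 in CAF. The CAF arrays were close together and all above NDF, while NDF replicate 3 was the lowest. The difference was 2.77 ± 0.54 (limma adjusted p = 0.115). A second probe set of Rsad2 was at 4.21, 4.01 and 4.11 in NDF and at 7.55, 7.62 and 9.24 in CAF. It differed by 4.02 ± 0.46 and passed when every probe set was tested on its own (limma adjusted p = 0.0383), whereas the third stayed between 3.52 and 3.89 on all arrays. The first probe set passed with array weights (3.18, limma adjusted p = 0.0358), so the call for Rsad2 moved with both the probe set and the weights.

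Ifitm1, a membrane protein that restricts viral entry, was at 6.92, 6.91 and 6.09 in NDF and at 8.37, 10.24 and 9.05 in CAF. All CAF arrays were above all NDF arrays, and CAF replicate 2 was the highest. The difference was 2.58 ± 0.49 (limma adjusted p = 0.110). Its paralogs, which lie beside it on chromosome 7, differed less. Ifitm3 was at 11.53 ± 0.25 and 12.04 ± 0.14 (SD, n = 3), a difference of 0.51 (adjusted p = 0.509), and Ifitm2 differed by 0.22 with a 95% interval of -0.24 to 0.68. The Ifit, Ifitm, Oas and Gbp genes are families of related sequence, and cross-hybridisation between their probes was not tested.

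Ifit1, whose protein binds viral RNA that lacks cap methylation, split the CAF arrays. It was at 5.31, 5.21 and 6.41 in NDF and at 8.29, 7.30 and 4.73 in CAF. CAF replicates 1 and 2 were above every NDF array and CAF replicate 3 was below every one. The difference was 1.13 ± 0.88 (limma adjusted p = 0.825), and 2.15 without CAF replicate 3 (adjusted p = 0.123). Without CAF replicate 1 the difference of Ifit1 was 0.37. Its neighbours on chromosome 19, Ifit2 and Ifit3, differed by 0.58 and 0.51, with overlapping groups.

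Rtp4, an interferon-induced receptor transporter protein, was at 7.41, 7.14 and 6.50 in NDF and at 8.51, 8.0 and 7.67 in CAF. The groups did not overlap, and the difference was 1.04 ± 0.32 (limma adjusted p = 0.353). Its other probe set differed by 0.05, and the mean of both by 0.55. The ADP-ribosyltransferase gene Parp14 and Ifi35 also separated the groups, with differences of 0.93 ± 0.19 and 0.88 ± 0.21. The other probe set of Parp14 differed by 0.53, and those of Ifi35 by -0.13 and 0.49. Usp18, which removes ISG15 from proteins and damps the type I receptor, separated them too, at 5.48 ± 0.52 and 6.40 ± 0.77 (SD, n = 3). Bst2, Oas2 and Oasl1 differed by 0.52, 0.08 and 0.12, and their groups overlapped. Samhd1, which encodes a dNTP-degrading restriction factor, differed by 0.39 with overlapping groups, and by 1.04 without CAF replicate 3. Another of its probe sets was at 7.36, 7.83 and 7.84 in NDF and at 8.49, 8.33 and 8.85 in CAF. That one separated the groups, by 0.87 (limma unadjusted p = 0.00745). Xaf1 differed by -0.14, and by 0.28 without CAF replicate 3.

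On the probe set that represents each gene, the differences of the cytoplasmic RNA sensing genes depended on CAF replicate 3. Ifih1, which encodes the sensor MDA5, was at 6.82, 7.85 and 6.98 in NDF and at 8.12, 7.21 and 4.50 in CAF. CAF replicate 1 was the highest of all arrays and CAF replicate 3 the lowest. The difference was -0.61 ± 0.88 (limma adjusted p = 0.928), and it was 0.45 without CAF replicate 3. Ddx58 (RIG-I), its ubiquitin ligase Trim25 and the helicase gene Dhx58 differed by -0.50, -0.37 and 0.48, and without CAF replicate 3 by 0.0052, -0.05 and 0.93. With all arrays none of these 4 passed an unadjusted p under 0.05, and without CAF replicate 3 Dhx58 did. A second probe set of Trim25 was at 7.89, 7.69 and 8.02 in NDF and at 7.23, 7.66 and 6.48 in CAF. There all CAF arrays lay below all NDF arrays, by -0.74 on average (limma unadjusted p = 0.0524). The third probe set of Trim25 differed by 0.18. The RNA-activated kinase gene Eif2ak2 (PKR) differed by -0.49, and by -0.14 without CAF replicate 3. Its 2 other probe sets differed by -0.96 and -0.43.

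**Figure D2:**
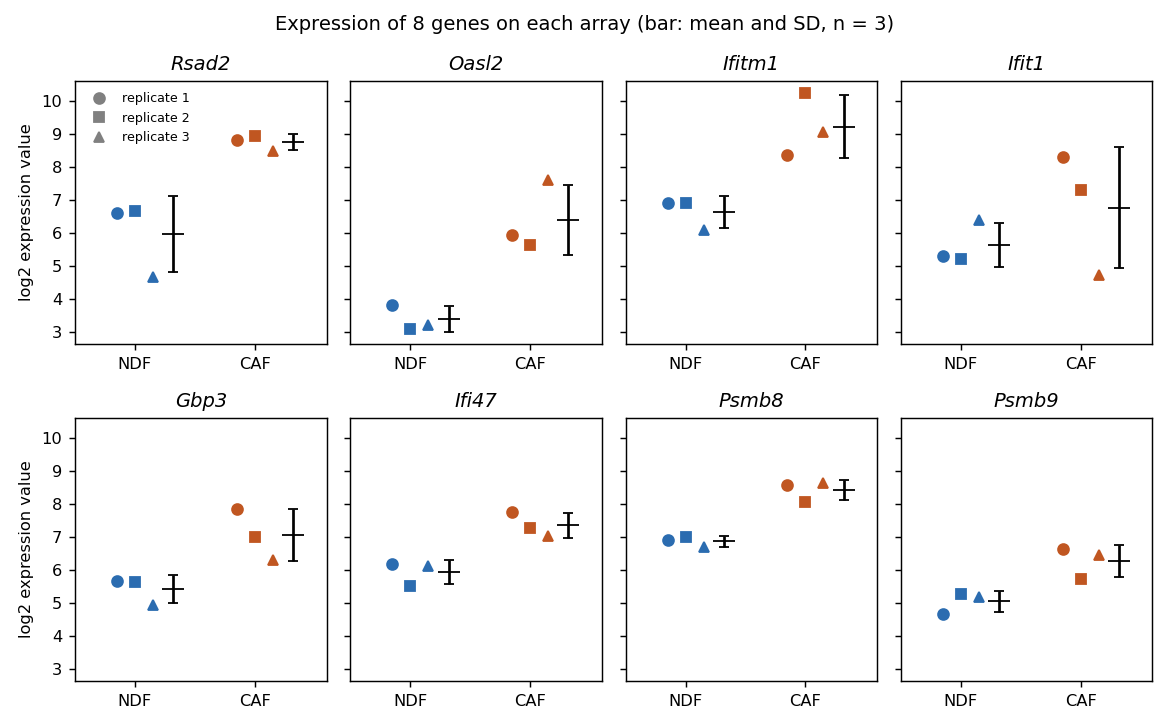
Log2 expression values of 8 genes on the 3 NDF and 3 CAF arrays, with the mean and SD as a bar beside each group. The groups are apart for every gene except Ifit1, where CAF replicate 3 lies at 4.73, below the NDF arrays.

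The GTPase genes had the highest median difference of the 4 roles, 0.97. An unadjusted p under 0.05 was reached by 5 of 7, all higher (4.93% of all genes were). None passed the adjusted threshold. Without CAF replicate 1 the medians were 0.58 for the GTPases, 0.34 for antigen processing and 0.30 for the effectors. Gbp3, a guanylate-binding protein, was at 5.67, 5.64 and 4.93 in NDF and at 7.86, 7.0 and 6.31 in CAF. All CAF arrays were above NDF. The difference was 1.65 ± 0.42, or 3.13-fold (limma adjusted p = 0.230). Gbp2 was at 6.51, 7.03 and 6.77 in NDF and at 8.30, 7.38 and 7.81 in CAF, a difference of 1.06 ± 0.28 (adjusted p = 0.255). Its other probe set differed by 1.14, so both probe sets of Gbp2 gave a similar size.

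Among the immunity-related GTPases, which act at the vacuoles of intracellular microbes, Ifi47 was at 6.19, 5.51 and 6.11 in NDF and at 7.76, 7.27 and 7.02 in CAF. The groups were apart by 1.41 ± 0.28 on average (limma adjusted p = 0.121). Igtp was at 7.21, 7.23 and 6.82 in NDF and at 8.59, 7.92 and 7.29 in CAF, a difference of 0.85 ± 0.34 (adjusted p = 0.535). Its CAF replicate 3 lay just above the highest NDF array. Irgm1 differed by 0.29 with overlapping groups, and by 0.81 without CAF replicate 3. Its highest array was CAF replicate 1, and without that array the difference was slightly negative.

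The dynamin-like GTPase gene Mx1 was at 3.59, 3.67 and 3.79 in NDF and at 5.43, 4.71 and 3.82 in CAF. CAF replicate 3 was at the NDF level and the other CAF arrays were above it. The difference was 0.97 ± 0.39 (limma adjusted p = 0.537), and 1.38 without CAF replicate 3. Mx2 was at 3.10, 3.24 and 3.07 in NDF and at 3.13, 2.85 and 3.35 in CAF. All its values were below the same 25th percentile. RefSeq lists both genes as transcribed pseudogenes in the reference strain, and many inbred mouse strains carry defective copies.

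Of the 7 antigen processing genes 1 rose and 3 reached an unadjusted p under 0.05, all higher (4.93% of all genes were). The median difference was 0.58. Psmb8, the immunoproteasome subunit β5i, was at 6.90, 7.01 and 6.69 in NDF and at 8.55, 8.06 and 8.62 in CAF. The groups were more than 1 log2 unit apart at their nearest arrays. Psmb8 rose by 1.54 ± 0.22, or 2.92-fold (limma adjusted p = 0.0461). It was the only gene of the list past the threshold. It missed it with quantile normalisation again (adjusted p = 0.0600), equal array medians (0.0544), an intensity trend (0.0606), the mean of its 2 probe sets (0.131) and without any 1 array other than CAF replicate 3 (0.0557 to 0.236). Its other probe set, at 3.22 to 3.92 on all arrays, differed by 0.41.

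Psmb9, the β1i subunit, was at 4.67, 5.28 and 5.18 in NDF and at 6.63, 5.74 and 6.45 in CAF. The groups did not overlap, and CAF replicate 2 was the nearest to NDF. The difference was 1.22 ± 0.30 (limma adjusted p = 0.209). Tap1, which shares its start region with Psmb9 and encodes one chain of the peptide transporter of the endoplasmic reticulum, was at 5.56, 5.43 and 5.92 in NDF and at 6.52, 6.24 and 6.78 in CAF. The difference was 0.87 ± 0.23 (limma adjusted p = 0.237). The 3 other probe sets of Tap1 were dimmer and had a median difference of 0.18. Psmb10, the β2i subunit, was at 6.86, 6.49 and 6.94 in NDF and at 7.84, 6.83 and 7.38 in CAF, where CAF replicate 2 lay within the NDF range. It differed by 0.58 ± 0.29 (adjusted p = 0.654).

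The genes that load peptides differed less. Tap2 was at 5.58, 6.31 and 6.31 in NDF and at 6.66, 6.41 and 6.21 in CAF, with overlapping groups and a difference of 0.36. Tapbp (tapasin), already high in NDF, was at 12.07, 12.25 and 12.38 and in CAF at 12.30, 12.14 and 12.18. It differed by -0.02, with a 95% interval of -0.44 to 0.39, and it was 0.045 with cyclic loess. B2m, the light chain of MHC class I, was at 12.38 ± 0.11 and 12.72 ± 0.15 (SD, n = 3), a difference of 0.33 (limma adjusted p = 0.676). At such levels an array can saturate, which was not tested here.

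The constitutive proteasome was measured beside its inducible subunits. Of 15 constitutive core and assembly genes none passed by limma at the adjusted threshold, none did at an unadjusted p under 0.05, and the groups overlapped on every one. Their differences lay between -0.12 and 0.25, with a median of 0.04. The replaced subunits Psmb5, Psmb6 and Psmb7 differed by -0.12, 0.09 and -0.12. Within each array, Psmb8 minus Psmb5 was -3.76 ± 0.29 in NDF and -2.10 ± 0.24 in CAF (SD, n = 3), 1.66 apart. The groups were 1.13 apart for Psmb9 minus Psmb6 and 0.70 apart for Psmb10 minus Psmb7. All 3 of these differences separated the groups, that of Psmb9 minus Psmb6 barely, with -4.23 on NDF replicate 2 and -4.20 on CAF replicate 2. The exact permutation test, two-sided, gave p = 0.1 for each, the smallest that 3 against 3 arrays allow, and 0.1 after Benjamini-Hochberg adjustment over the 3. The activator subunit gene Psme1 was at 8.59 ± 0.45 and 9.26 ± 0.55 (SD, n = 3), with overlapping groups.

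**Figure D3:**
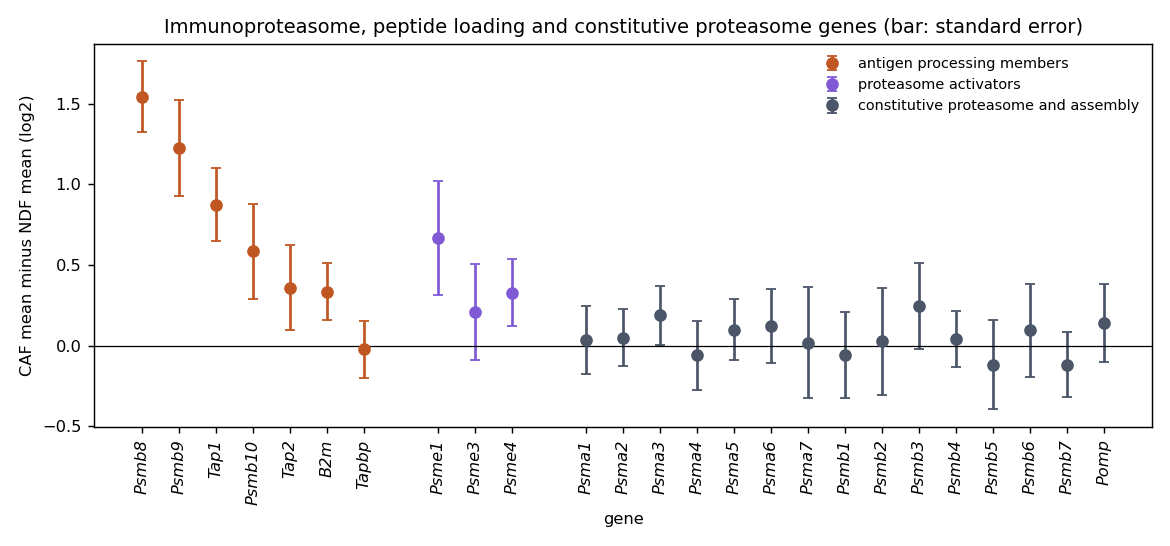
Mean log2 difference of CAF from NDF with its standard error for the antigen processing genes, 3 proteasome activator genes and 15 constitutive proteasome genes. The immunoproteasome subunits lie at 0.58 to 1.54 and the constitutive genes between -0.12 and 0.25.

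None of the 4 transcription factor genes reached an unadjusted p under 0.05, and their median difference was 0.37. Without CAF replicate 3, Irf1 and Stat2 did, and with array weights Irf1, Irf7 and Stat2 did. Irf9, the DNA-binding part of the type I complex, was at 7.83, 7.68 and 8.04 in NDF and at 8.15, 8.05 and 9.27 in CAF. CAF replicate 2 was barely above the highest NDF array. The difference was 0.64 ± 0.35, and 0.25 without CAF replicate 3. Irf7, which amplifies type I interferon, was at 4.8, 5.07 and 5.06 in NDF and at 5.62, 5.14 and 5.20 in CAF, and the mean difference was 0.34 (95% interval -0.14 to 0.83).

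Irf1, the factor induced by interferon γ, was at 7.49, 7.74 and 7.86 in NDF and at 8.18, 8.60 and 7.49 in CAF. CAF replicate 3 was the lowest of all 6 arrays by a small margin. The difference was 0.39 ± 0.31, and 0.69 without CAF replicate 3. Stat2 was at 5.47, 5.77 and 5.91 in NDF and at 6.80, 6.30 and 4.62 in CAF. Its difference was 0.19 ± 0.54, and 0.83 without CAF replicate 3. On this probe set CAF replicate 3 was below NDF and the other CAF arrays were above it. The other probe set of Stat2 was at 4.72, 5.03 and 4.74 in NDF and at 5.16, 4.90 and 5.18 in CAF, with CAF replicate 3 the highest.

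The CAF arrays differed from each other in their values for these genes. CAF replicate 1 had the highest value of the CAF arrays for 25 of 40 genes, CAF replicate 3 for 9 and CAF replicate 2 for 6. CAF replicate 1 was above the whole NDF range for 33 of the 40 (24% of all genes) and below it for 1 (28.8% of all genes). CAF replicate 3 was above that range for 24 of the 40, where 40% of all genes were, and below it for 10 of the 40, where 33.3% of all genes were. The share of the list below that range was no higher than over all genes, so it is not particular to the list. The 10 were Ifit1, Ifih1, Ddx58, Xaf1, Trim25, Samhd1, Eif2ak2, Irgm1, Irf1 and Stat2. By role, the median difference of CAF replicate 3 from the NDF mean was 0.61 for antigen processing, 0.29 for effectors, 0.21 for GTPases and 0.01 for the transcription factors. CAF replicate 1 was at 0.88, 0.98, 1.53 and 0.56. The spread within CAF was the larger one for 33 of 40 genes (82.5%), as for 72.0% of all genes. With arrays weighted by their fit, CAF replicate 3 had a weight of 0.167 against 0.818 to 2.56 for the others. In that fit 12 of 40 genes passed the adjusted threshold as higher (30%, against 1.89% of all genes). They were Oasl2, Rsad2, Ifi35, Parp14, Rtp4, Gbp2, Gbp3, Ifi47, Igtp, Mx1, Psmb8 and Psmb9.

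Other genes of the pathway, taken from lists written from textbook knowledge with earlier results of these data known, give the setting. They are no independent check of the list. Of 42 further interferon-stimulated genes 1 rose, none fell, and 10 had an unadjusted p under 0.05, all of them higher. Of all genes, 0.489% rose, 0.0275% fell and 4.93% were higher at that unadjusted level. The median difference of the 42 genes was 0.40. Cd274, which encodes the checkpoint ligand PD-L1, was at 5.93, 6.18 and 5.54 in NDF and at 7.66, 8.71 and 8.52 in CAF. It rose by 2.42 ± 0.33 (limma adjusted p = 0.0412). Iigp1, another immunity-related GTPase, was at 3.96 ± 1.00 and 7.46 ± 0.64 (SD, n = 3), with an adjusted p of 0.0622. The same adjusted p applied to the tripartite motif gene Trim30a, at 4.97 ± 1.28 and 9.83 ± 1.08 (SD, n = 3, limma). Of 10 MHC class I and loading genes none passed by limma. An unadjusted p under 0.05 was reached by 3, all higher, and the median difference was 0.09. Nlrc5, the transactivator of MHC class I genes, was at 6.10, 7.08 and 5.56 in NDF and at 7.89, 8.41 and 8.96 in CAF (adjusted p = 0.128). The heavy chain genes H2-K1 and H2-D1 differed by 0.76 ± 0.18 and 0.71 ± 0.20, with no overlap between the groups.

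**Figure D4:**
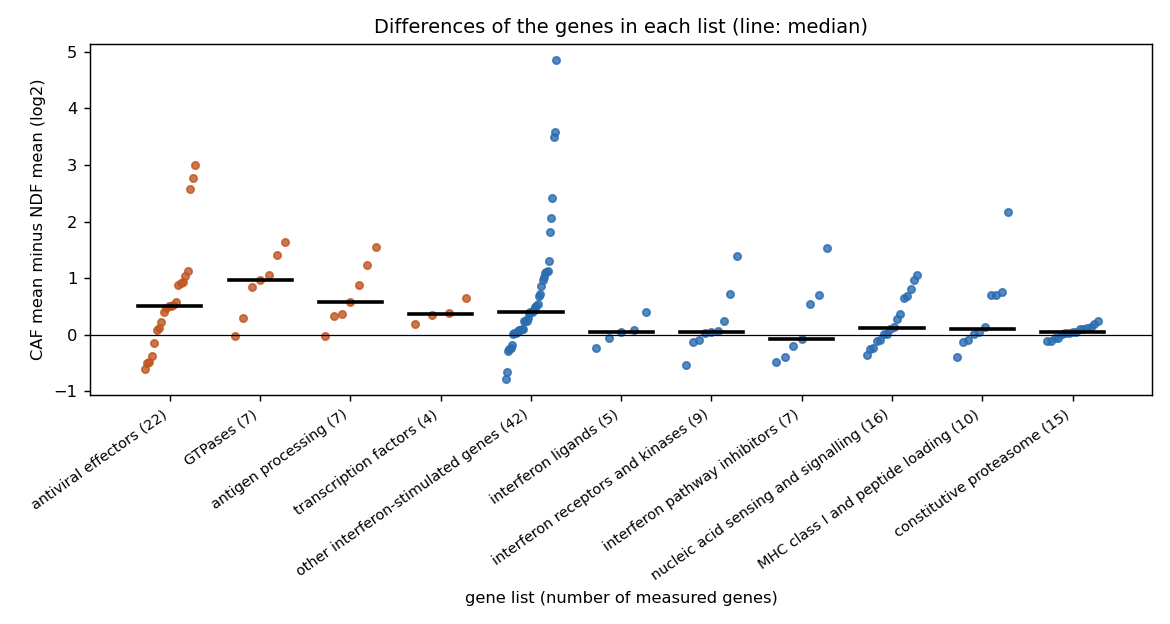
Each point is a gene, placed by its CAF minus NDF difference in log2 units within its list, and the line is the list's median. The medians are 0.51, 0.97, 0.58 and 0.37 for the 4 roles, 0.40 for the further interferon-stimulated genes, and 0.04 for both the interferon ligands and the constitutive proteasome.

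Of the 5 interferon genes measured, Ifna1 was at 5.67 ± 0.20 in NDF and 5.44 ± 0.14 in CAF (SD, n = 3), and the other 4 were dim in both groups. Ifnb1 was at 3.69 ± 0.29 in NDF and 3.73 ± 0.35 in CAF, and Ifng at 2.93 ± 0.18 and 3.02 ± 0.24 (SD, n = 3). None of the 5 passed by limma and none was higher or lower at an unadjusted p under 0.05. Of 9 receptor and kinase genes none passed, with a median of 0.05. At that unadjusted level 1 was higher and 1 lower, against 4.93% and 4.02% of all genes. The lower one was Ifnar1, a chain of the type I receptor, at 9.26, 9.15 and 9.36 in NDF and 8.93, 8.49 and 8.76 in CAF (limma adjusted p = 0.453). The higher one was the type III receptor gene Ifnlr1, at 3.25 ± 0.14 and 3.97 ± 0.21 (SD, n = 3), near the floor of the scale. Of 7 inhibitor genes none passed by limma, and 2 reached an unadjusted p under 0.05, both higher. Socs3, a brake on cytokine receptors, was at 9.58 ± 0.58 and 11.11 ± 0.19 (SD, n = 3), whereas Socs1 differed by -0.20. Of 16 sensing and signalling genes none passed by limma. Only Irf8 and the adaptor gene Myd88 reached an unadjusted p under 0.05, higher by 0.97 and 0.68.

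Leukocytes also express interferon-stimulated and immunoproteasome genes, and their markers were higher on the CAF arrays. Of 22 macrophage and dendritic cell genes 3 rose (0.489% of all genes did). An unadjusted p under 0.05 was reached by 14 as higher (4.93% of all genes). The summed linear level of the 22 genes was 804 to 1276 in NDF and 3674 to 10166 in CAF. Ptprc, the pan-leukocyte gene, was at 4.32, 4.36 and 3.65 in NDF and 8.06, 9.44 and 7.83 in CAF, while Itgam and Flt3 stayed dim, at 3.02 and 3.50 in CAF. Of 12 neutrophil genes 3 rose, and the sum went from 1055 to 1666 in NDF to 9377 to 19539 in CAF. Of 13 T and NK cell genes 1 rose, with sums of 235 to 246 and 328 to 888. Of 17 keratinocyte genes 3 rose and of 14 endothelial genes 1 did, with sums of 7176 to 7902 against 11781 to 23590 and of 1273 to 1711 against 1787 to 4446. Of 8 plasmacytoid dendritic cell genes none passed by limma. An unadjusted p under 0.05 was reached by 2 as higher and by 1 as lower (4.93% and 4.02% of all genes). The marker Siglech was at 4.73 and 4.86.

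The summed linear level of the 40 genes was 18933 to 20106 in NDF and 24666 to 28063 in CAF. B2m, Tapbp, Ifitm3 and Ifitm2, the brightest of the list, weigh most in that sum. The median log2 level of the 40 genes was 6.42, 6.94 and 6.52 on the NDF arrays and 8.05, 7.24 and 6.86 on the CAF arrays. CAF replicate 1, which had the most maxima of the list, had the lowest macrophage sum of the CAF arrays, 3674, and also the lowest neutrophil and T and NK cell sums. By the median log2 level of the macrophage genes, CAF replicate 2 was the lowest, at 6.95, against 7.09 and 8.30 on CAF replicates 1 and 3. CAF replicate 3 had the highest macrophage sum, 10166. On keratinocyte genes CAF replicate 1 had the highest sum, 23590, and CAF replicate 3 was close, at 22664. The part of these cells in the differences of the list was not tested.

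**Figure D5:**
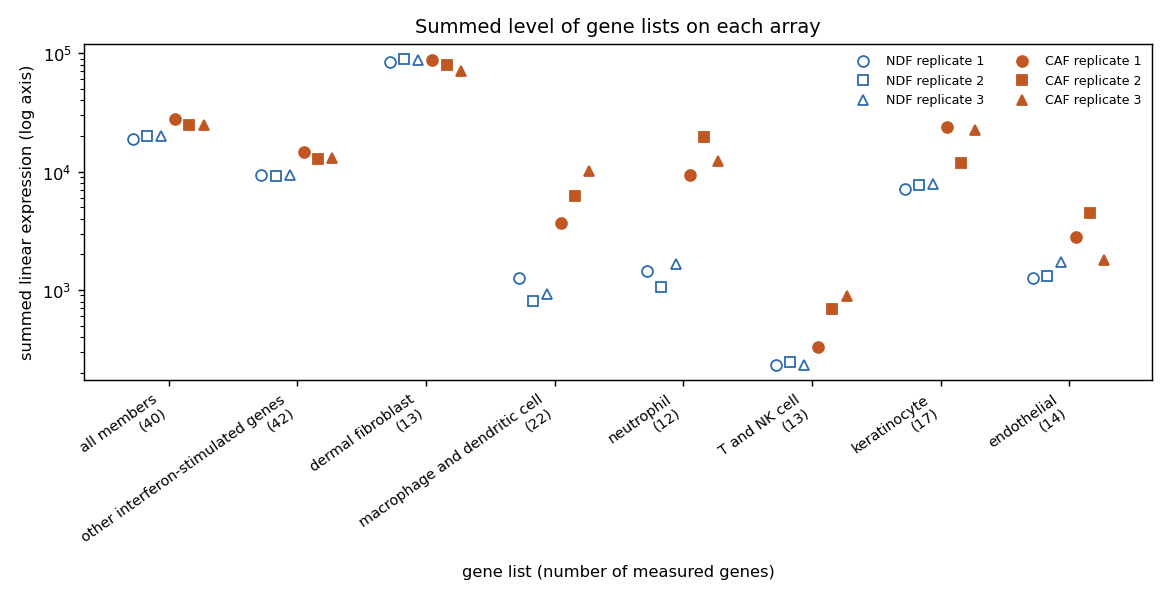
Summed linear expression of each list on each array, on a log axis, with NDF arrays as open and CAF arrays as filled symbols. The macrophage and dendritic cell sum is lowest on CAF replicate 1 among the CAF arrays, at 3674, and the sum of the 40 genes is highest there, at 28063. Such sums are weighted to the brightest genes. By median log2 level the macrophage genes are lowest on CAF replicate 2 among the CAF arrays, at 6.95.

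The 11 measured genes whose window holds the interferon-stimulated response element had a median difference of 0.52, and the 21 without it 0.51. Within roles the medians differed. They were 0.52 with it and 0.25 without it for 5 and 12 effectors, and 0.95 and 1.41 for 4 and 1 GTPases. For 1 and 5 antigen processing genes they were 0.33 and 0.87, and for 1 and 3 transcription factors 0.19 and 0.39. With the gamma-activated site the 7 measured genes had a median of 0.52, and the 25 without it 0.51. Oasl2 and Ifitm1, among the largest differences of the list, hold no match to the interferon-stimulated response element in the window, which says only that these letters are absent there.

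Across all 67 probe sets of the list, 51 had a difference above 0 and the median was 0.39, against -0.03 over all 34945 probe sets that name 1 gene. At an unadjusted p under 0.05, 18 were higher (26.9%, against 4.08% of all probe sets) and none was lower. With adjustment over all probe sets 1 was higher, that of Rsad2 (0.206% of all probe sets). For 16 genes with more than 1 probe set, the median of the others had the sign of the chosen one in 14. The 2 exceptions were Xaf1, at -0.14 and 0.42, and Dhx58, at 0.48 and -0.01.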

How the data were processed

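Affymetrix mouse arrays were hybridised with RNA amplified in 1 round (WT-Ovation), per the labels' protocols. GCOS and RMA are named in the submitters' processing notes. No version or genome build is given in the sources used here. The authors deposited log2 values, between 2.20 and 14.60. RMA subtracts background, quantile normalises arrays and summarises probes, so low values are compressed towards a floor and differences of dim genes are understated. Detection calls were not used here.

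Of 45101 probe sets, 64 are controls, 34945 were assigned to 1 gene each, 932 to several, and the annotation table used has no entry for 9160. The probe set of highest mean represents each of 18193 genes, with no filter on dim values. At or above the median probe set mean (4.84), 35 of the 40 measured genes remain, and 39 at the 25th percentile (3.60). Groups were compared with limma 3.58.1 in R 4.3.3 (lmFit, eBayes, two-sided), with a single term for group. P values were adjusted by Benjamini-Hochberg over the 18193 genes (threshold 0.05), and each SE is moderated. On simulated data the procedure recovered 22%, 58%, 80% and 94% of changes of 1, 2, 3 and 4 log2 units, with 12 false calls. Changes of 1 log2 unit were thus mostly missed. Summed levels add 2 to the power of each value.

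The members and lists were chosen with earlier results of these data known. Array values are given for members past the threshold, for the 5 of largest difference in each role and for the lowest. Other pathway genes are named where they passed the threshold or were among the 3 of smallest p in their list, beside the proteasome counterparts, Ifnb1, Ifng and Pdgfra. The start regions of Psmb8, Irf1, Psmb9 and Tap1, the second probe sets described, Ifna1, Socs1, Siglech, Itgam and Flt3 were chosen after their values were seen. Same-numbered arrays of the groups did not deviate together (correlations of -0.15, 0.11 and -0.01), so no block was used. Start regions are from RefSeq. Proteins were not used here. Plots used matplotlib 3.10.9 and Python 3.11.15.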

Additional observations from a re-analysis of the deposited data

How the results depend on the processing

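The median difference of the 40 genes stayed positive under every alternative run, between 0.34 without CAF replicate 1 and 0.82 with array weights. The count past the adjusted threshold, 1 as reported, was less stable. By limma it was 0 with quantile normalisation again and with equal array medians, where 14 and 14 genes were higher at an unadjusted p under 0.05. Without cross-matching suffixes it was also 0, with 10 higher at that level among the 30 of the 40 genes tested. That setting removed both probe sets of Psmb8 and the only one of Oasl2, so it could not test either gene. It was 12 with array weights, where 26 were higher at that level, and 0 to 2 when 1 array was left out (0 without any 1 NDF array, CAF replicate 1 or CAF replicate 2, and 2, Psmb8 and Oasl2, without CAF replicate 3). The gene was Psmb8 as reported and with cyclic loess and both filters on dim genes, Rsad2 with the mean of probe sets, and Oasl2 with an intensity trend and without CAF replicate 3 and NDF replicate 1 together. The count higher at an unadjusted p under 0.05 was 12 to 22 when 1 array was left out, and the count lower 0 to 1 (1 without CAF replicate 1 or 2). Over all genes 94 passed, 155 with an intensity trend, 438 with array weights and between 5 (without NDF replicate 3) and 156 (without CAF replicate 3) when 1 array was left out. No paired block was used, since the numbers only name the arrays. With a replicate block 20 genes passed over all genes and 0 of the list by limma, 14 of it being higher at an unadjusted p under 0.05.

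Among the 22 genes given with array values, the sign changed for Ifih1, Tapbp, Mx2 and Stat2. Among the other members, Xaf1 (0.28), Ddx58 (0.0052) and Oasl1 (-0.05) had the opposite sign without CAF replicate 3, and Xaf1 (0.55) and Oasl1 (-0.0074) with array weights. Ifih1 was at 0.56 with array weights and 0.25 without CAF replicate 3 and NDF replicate 1 together. Tapbp was at 0.045 with cyclic loess. When 1 array, or that pair, was left out, Ifih1 was between -1.36 and 0.45, Tapbp between -0.11 and 0.050, Mx2 between -0.16 and 0.11 and Stat2 between -0.26 and 0.83. The causes were not tested. With 3 arrays per group, dim genes such as Mx2, Oasl1, Ifnb1 and Ifng lie near the floor of the scale, and differences there were not detectable at this signal.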
